A study of Mus musculus with 20 samples.

Results

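The genes Dio2, Thra, Thrb and Slc16a10 bring thyroid hormone to action in cells: they encode an activating deiodinase, both nuclear receptors and a transporter, and were examined here in mouse hearts. They were taken by symbol from a table of raw counts per gene, so they are 4 genes of the 55335 in the table, and all 4 had enough counts to be tested. The series asked how the prolyl hydroxylase OGFOD1 bears on cardiac hypertrophy. It compared 4 groups of 5 heart libraries each: OGFOD1-knockout (KO) mice given isoproterenol, wild-type (WT) mice given isoproterenol, KO mice given vehicle and WT mice given vehicle. All were C57BL/6N mice of 3 to 5 months on the NIH-31 diet. An osmotic minipump delivered its contents for 2 weeks. Isoproterenol, a β-adrenergic agonist, was dissolved in PBS with sodium ascorbate, and the vehicle was PBS with sodium ascorbate. The labels give neither the deleted part of Ogfod1 nor the cells that lack it. RNA came from powder of frozen whole hearts. The labels do not say that the 5 libraries of a group came from different mice, so the p-values measure the spread between these libraries.

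Thyroid hormone circulates mostly as the prohormone T4. DIO2, the type 2 deiodinase, is a selenoenzyme that turns T4 into the active hormone T3 inside cells, and in brown fat its gene is induced by adrenergic signals through cyclic AMP (cAMP). T3 enters cells through transporters such as MCT10, the product of Slc16a10, which also carries aromatic amino acids. It binds the nuclear receptors encoded by Thra, the main receptor gene of the heart, and Thrb. In the rodent ventricle T3 is known to raise Myh6 and to lower Myh7, the genes of the fast and the slow myosin heavy chain.

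Upstream sequence is shown because Dio2 is known as a gene induced through cAMP and was the member with the higher level under isoproterenol. The reference held windows of 250 bases before to 50 after a RefSeq start (build GRCm38.p6) for 3 of the 4 genes, and none for Thra. The 250 bases before the start are printed below 5′ to 3′ on each gene's own strand: Dio2 from chr12:90739039-90739288 (minus strand), Slc16a10 from chr10:40142255-40142504 (minus strand) and the upstream one of both Thrb windows from chr14:17660710-17660959 (plus strand). Capitals mark TGACG, the half-site of the cAMP response element, on either strand.
Dio2: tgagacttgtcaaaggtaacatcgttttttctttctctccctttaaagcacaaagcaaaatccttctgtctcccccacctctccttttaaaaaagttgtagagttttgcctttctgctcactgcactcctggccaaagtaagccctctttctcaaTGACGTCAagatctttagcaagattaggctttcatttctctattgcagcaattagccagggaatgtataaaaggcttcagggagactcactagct
Slc16a10: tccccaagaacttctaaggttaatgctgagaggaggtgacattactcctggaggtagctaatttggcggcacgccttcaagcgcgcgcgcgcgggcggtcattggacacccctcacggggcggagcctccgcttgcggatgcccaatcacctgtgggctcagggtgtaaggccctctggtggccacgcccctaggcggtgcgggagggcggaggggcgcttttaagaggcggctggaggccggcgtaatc
Thrb: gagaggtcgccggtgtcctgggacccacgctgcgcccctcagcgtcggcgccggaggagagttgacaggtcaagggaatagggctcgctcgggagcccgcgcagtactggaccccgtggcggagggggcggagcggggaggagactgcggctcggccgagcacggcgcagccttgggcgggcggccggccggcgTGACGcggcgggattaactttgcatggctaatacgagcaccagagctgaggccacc
In Dio2 a pair of overlapping half-sites on opposite strands formed the full element TGACGTCA, whose first base lay 95 bases before the start. A search of both strands found the full element in 588 of 32851 such windows (1.79%), and TGACG, which it contains, in 20.8%. Dio2 also held TATAAA 30 bases before the start, a motif present in 13.6% of windows. The Thrb window held 1 TGACG, 56 bases before the start, and 1 AGGTCA, the half-site of thyroid hormone response elements, 184 bases before it. AGGTCA occurred in 16.3% of windows. The Slc16a10 window held none of the 4 motifs, and the downstream Thrb window, not printed, held only TATAAA. These matches are letters in a window, and no binding was measured.

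Dio2 (ENSMUSG00000007682) lies on chromosome 12, 90724552 to 90738438, minus strand, in GENCODE vM21 on GRCm38. The RefSeq start above lies upstream of that gene model. Levels below are in CPM, the read count relative to library size after scaling between libraries. Dio2 was a low-count gene, with 19 to 177 counts in a library. It stood at 3.69, 2.79, 2.73, 4.20 and 7.45 CPM in replicates 1 to 5 of KO isoproterenol and at 5.89, 4.79, 3.00, 3.07 and 2.65 CPM in those of WT isoproterenol. It stood at 2.33, 2.19, 1.92, 2.92 and 2.37 CPM in KO vehicle and at 2.24, 1.33, 1.01, 1.18 and 1.48 CPM in WT vehicle. In WT hearts every isoproterenol library lay above every vehicle library. In KO hearts 3 of 5 isoproterenol libraries lay above all vehicle libraries, and all 5 lay above the vehicle mean. These contrasts chose the gene, and the share of all genes that separate so was not counted, here or below. The unadjusted edgeR p of isoproterenol against vehicle was under 0.05 for 3435 of 14878 genes tested in KO and 3421 in WT. Replicate 5 of KO isoproterenol was the highest of the 20.

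Group means of Dio2, in falling order, were 4.17 ± 1.93 CPM in KO isoproterenol, 3.88 ± 1.40 CPM in WT isoproterenol, 2.35 ± 0.367 CPM in KO vehicle and 1.45 ± 0.478 CPM in WT vehicle (SD, n = 5 each). Each group overlapped the next in that order. The log2 fold change of isoproterenol over vehicle was 0.85 with a standard error (SE) of 0.268 in KO and 1.42 with an SE of 0.292 in WT. The genes were chosen by their values in these isoproterenol contrasts, so the folds are a description and carry no test. Without replicate 5 of KO isoproterenol the KO value was 0.52. Counting error alone was wide at these depths: the exact Poisson 95% interval was 6.39 to 8.63 CPM for replicate 5 of KO isoproterenol and 0.799 to 2.07 CPM for replicate 2 of WT vehicle, the library with 19 counts.

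**Figure D1:**
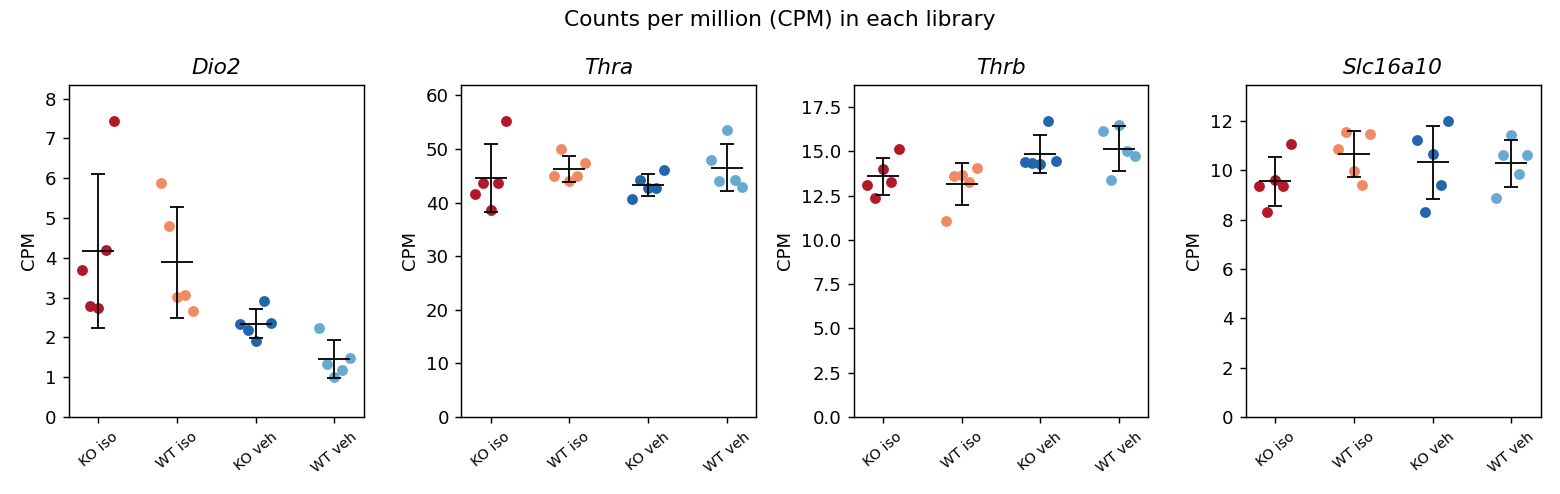
Each point is 1 library, the vertical axes give CPM from 0, and the lines give the mean and SD of 5 libraries in KO isoproterenol (KO iso), WT isoproterenol (WT iso), KO vehicle (KO veh) and WT vehicle (WT veh). Dio2 averaged 4.17 and 3.88 CPM in the isoproterenol groups, against 2.35 and 1.45 CPM in the vehicle groups. In the contrasts that chose the genes, the treatments stood apart for Dio2 in WT and overlapped for Dio2 in KO. They overlapped in both genotypes for Thra, Thrb and Slc16a10.

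The genotype comparisons did not choose the genes and were tested with edgeR's quasi-likelihood test, with Benjamini-Hochberg adjustment over the 14878 genes tested and a threshold of 0.05. They share libraries with the isoproterenol contrasts that did choose them, so they are not independent of that choice. KO minus WT under vehicle, for example, uses the WT vehicle libraries of the WT isoproterenol contrast, as does the difference between responses. Under vehicle, Dio2 was 0.71 higher in KO than in WT on the log2 scale (SE 0.302, 95% interval 0.08 to 1.34). All 5 KO libraries lay above the WT mean and 3 lay above every WT library. The unadjusted p was 0.0293 and the edgeR adjusted p was 0.541, so the difference did not pass. Of all genes tested, 0.128% passed in this comparison. With every gene of at least 1 count kept, the edgeR adjusted p for Dio2 was 0.0628, and over all alternatives it ran from 0.0628 to 0.752.

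Under isoproterenol the KO minus WT value of Dio2 was 0.13 (SE 0.259, 95% interval −0.41 to 0.67, edgeR adjusted p = 0.882), a comparison in which 0.181% of all genes passed. It changed sign to −0.20 without replicate 5 of KO isoproterenol. The isoproterenol response of Dio2 was 0.57 smaller in KO than in WT as fitted (log2 difference of responses −0.57, SE 0.399, 95% interval −1.40 to 0.25, edgeR adjusted p = 0.736). No gene passed for the difference between responses in edgeR, DESeq2 or limma-voom, and 1142 genes had an unadjusted edgeR p under 0.05. The interval of the difference spans 0 and is wide, so the data neither show a genotype difference in the Dio2 response nor show that the responses were alike.

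**Figure D2:**
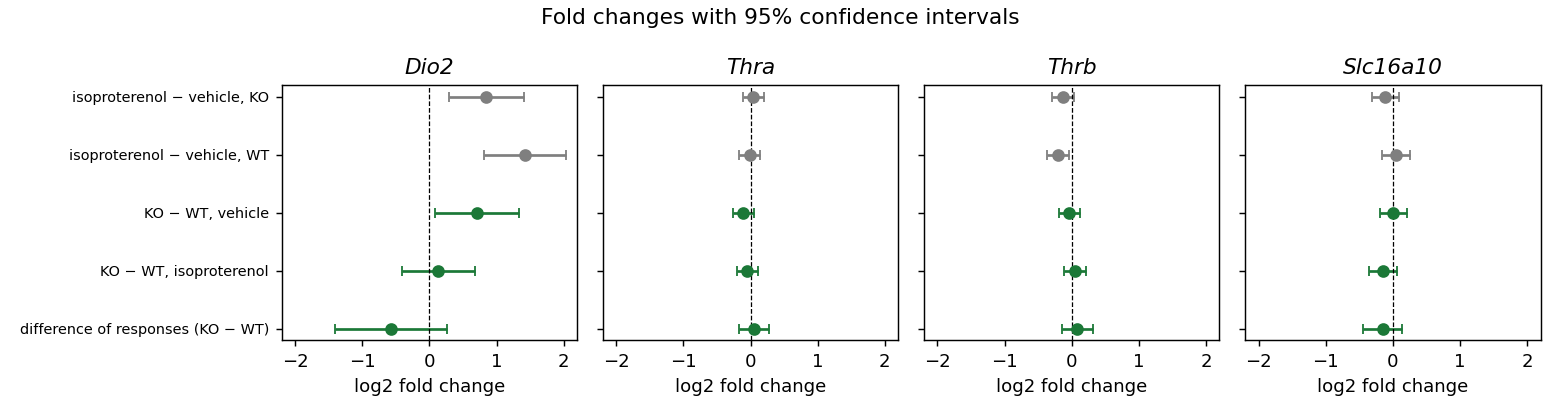
Points are log2 fold changes and bars their 95% confidence intervals, in 5 comparisons for each of the 4 genes. Grey marks the isoproterenol contrasts, which chose the genes, and green the comparisons that were tested, with 0.71 for Dio2 in KO over WT under vehicle as the largest of the green values.

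Thra (ENSMUSG00000058756; chromosome 11, 98740638 to 98769006, plus strand) encodes a T3-binding receptor and a splice variant that does not bind T3, which counts per gene cannot separate. It stood at 41.6, 43.6, 38.7, 43.7 and 55.3 CPM in KO isoproterenol and at 44.9, 50.0, 44.1, 44.9 and 47.4 CPM in WT isoproterenol. It stood at 40.7, 44.3, 42.7, 42.7 and 46.0 CPM in KO vehicle and at 47.9, 44.0, 53.6, 44.2 and 42.9 CPM in WT vehicle. All 4 groups overlapped, and replicate 5 of KO isoproterenol was again the highest library. The log2 fold change of isoproterenol over vehicle was 0.04 in KO and −0.01 in WT (SE 0.077 in each). KO minus WT was −0.11 under vehicle (edgeR adjusted p = 0.774) and −0.05 under isoproterenol (edgeR adjusted p = 0.836). The interval under vehicle ran from −0.26 to 0.05. The exons of Thra share 263 bases (5.70% of its exon length) with Nr1d1, the gene of the clock repressor REV-ERBα on the opposite strand. The strand setting of the counting is not given, so reads there could count for either gene or for none. Nr1d1 was 0.35 lower in KO than in WT under isoproterenol as fitted, which did not pass (edgeR adjusted p = 0.465).

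Thrb (ENSMUSG00000021779; chromosome 14, 17660261 to 18038090, plus strand) encodes the second T3 receptor. It stood at 13.1, 12.4, 14.0, 13.3 and 15.1 CPM in KO isoproterenol and at 11.1, 13.6, 13.7, 13.3 and 14.0 CPM in WT isoproterenol. It stood at 14.4, 14.4, 14.3, 16.7 and 14.4 CPM in KO vehicle and at 16.2, 13.3, 16.5, 15.0 and 14.7 CPM in WT vehicle. All 5 WT isoproterenol libraries lay below the WT vehicle mean, and 4 of 5 KO isoproterenol libraries lay below every KO vehicle library. The log2 fold change of isoproterenol over vehicle was −0.12 in KO (SE 0.0796) and −0.21 in WT (SE 0.0799), again as a description. The genotypes stood close: KO minus WT was −0.03 under vehicle (95% interval −0.20 to 0.13, edgeR adjusted p = 0.959) and 0.05 under isoproterenol (95% interval −0.11 to 0.22, edgeR adjusted p = 0.848).

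Slc16a10 (ENSMUSG00000019838; chromosome 10, 40033532 to 40142258, minus strand) encodes the transporter. It stood at 9.38, 8.32, 9.60, 9.37 and 11.1 CPM in KO isoproterenol and at 10.9, 11.6, 9.96, 9.42 and 11.5 CPM in WT isoproterenol. It stood at 11.2, 8.29, 10.7, 9.41 and 12.0 CPM in KO vehicle and at 8.87, 10.6, 11.5, 9.83 and 10.6 CPM in WT vehicle. All 4 groups overlapped. The log2 fold change of isoproterenol over vehicle was −0.11 in KO and 0.04 in WT (SE 0.101 in each). KO minus WT was 0.01 under vehicle (edgeR adjusted p = 0.994) and −0.15 under isoproterenol (95% interval −0.35 to 0.06, edgeR adjusted p = 0.583). The difference between the isoproterenol responses passed for none of the 3 genes, at −0.15 for Slc16a10, 0.09 for Thrb and 0.05 for Thra (edgeR adjusted p of 0.812, 0.879 and 0.926).

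The order of the 4 genes was fixed on a scale of level per exon length, as CPM divided by the exon length in kilobases (RPKM). Over the 20 libraries Thra ran from 8.38 to 12.0 RPKM, Thrb from 1.5 to 2.26, Slc16a10 from 1.13 to 1.63 and Dio2 from 0.173 to 1.28. Within each library Thra exceeded Thrb by a ratio of 4.09 to 6.49 (median 5.14), which held in 20 of 20. Thrb exceeded Slc16a10 by a ratio of 1.01 to 1.81 and Slc16a10 exceeded Dio2 by 1.17 to 9.00, each in 20 of 20 libraries. Dio2 was therefore the lowest member per length in every library.

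Myh7 was lower in the treatment in which Dio2 was higher. Both directions belong to the choice of these genes, so they are a description and carry no test. It stood at 62.9, 58.0, 49.7, 38.5 and 49.4 CPM in KO isoproterenol and at 60.7, 41.1, 45.9, 47.9 and 43.4 CPM in WT isoproterenol. It stood at 200.1, 100.5, 103, 83.7 and 73.2 CPM in KO vehicle and at 218, 350, 297, 188 and 219 CPM in WT vehicle. Within each genotype the isoproterenol libraries lay below every vehicle library. The log2 fold change of isoproterenol over vehicle was −1.12 (SE 0.249) in KO and −2.41 (SE 0.257) in WT. KO minus WT under vehicle was −1.18 (edgeR adjusted p = 0.0977). This value and the KO minus WT value of Dio2 under vehicle had opposite signs, and neither passed in edgeR. Both rest on vehicle libraries that the isoproterenol contrasts also used.

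Within a treatment the libraries could be ranked against each other, and 3 relations between log2 CPM of Dio2 and of Myh7 were computed. Over the 10 isoproterenol libraries r was 0.06 (permutation p = 0.856, rho = 0.04 with permutation p = 0.918), and r was 0.17 without the pair of libraries farthest from the Myh7 median. Over the 10 vehicle libraries r was −0.72 (permutation p = 0.0224, adjusted over the 3 relations 0.0671) and rho was −0.70 (permutation p = 0.0302, adjusted 0.0907). Without the farthest pair r was −0.57, and without replicate 1 of WT vehicle it was −0.80 (permutation test, adjusted p = 0.0477). The vehicle relation holds the difference between the genotypes. With each genotype's mean taken out, a step added after seeing the data, the same 10 libraries gave r = −0.24 (permutation p = 0.479, adjusted over 4 relations 0.856) and rho = −0.38 (permutation p = 0.293, adjusted 0.391), and r = −0.43 without the farthest pair. Deviations of all 20 libraries from their group means gave r = −0.09 (permutation p = 0.659, adjusted 0.856) and rho = −0.26 (permutation p = 0.270, adjusted 0.404), with r = −0.12 without the farthest pair. The opposite order of Dio2 and Myh7 between treatments was given by the choice of the genes. No relation from library to library passed after adjustment with all libraries kept. Both genes share library depth and scaling, and reads of the paralogs Myh6 and Myh7 may have been split or dropped in the counting.

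**Figure D3:**
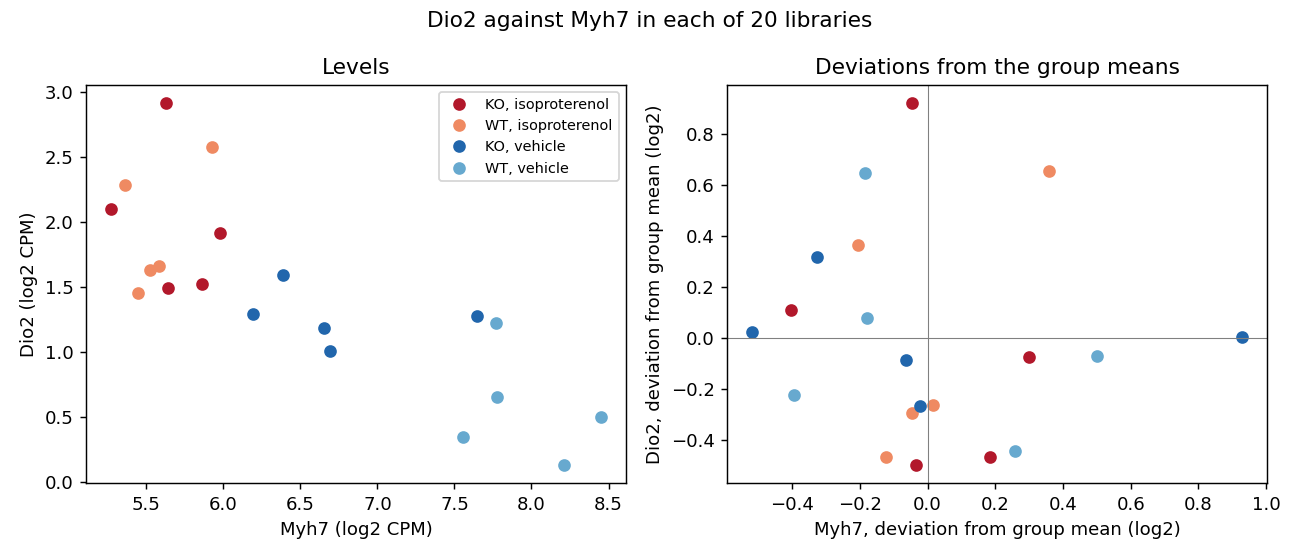
Each point is 1 of the 20 libraries, with log2 CPM of Myh7 on the horizontal axis and of Dio2 on the vertical axis, as levels on the left and as deviations from the group means on the right. The isoproterenol libraries sit at low Myh7 and high Dio2 on the left (r = 0.06 among them), and the deviations on the right give r = −0.09.

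Dio2 is abundant in brown fat, whose marker Ucp1 was therefore set beside it. Ucp1 stood at 2.24, 0.13, 0.82, 1.48 and 16.0 CPM in KO isoproterenol and at 1.62, 12.5, 0.80, 0 and 0 CPM in WT isoproterenol. It stood at 6.88, 6.75, 1.22, 2.50 and 2.03 CPM in KO vehicle and at 2.60, 0.98, 1.04, 0.62 and 1.80 CPM in WT vehicle. The library with the highest Dio2, replicate 5 of KO isoproterenol, also had the highest Ucp1. Replicates 4 and 5 of WT isoproterenol had 0 Ucp1 counts, which allows up to 0.0703 and 0.210 CPM (3 counts in each library). Their Dio2 levels were 3.07 and 2.65 CPM (exact Poisson 95% intervals 2.57 to 3.64 and 1.88 to 3.64). The highest WT vehicle library, replicate 1, stood at 2.24 CPM (1.63 to 3.01), and the intervals overlapped. Replicates 1 and 2 of KO vehicle had Ucp1 at 6.88 and 6.75 CPM with Dio2 at 2.33 and 2.19 CPM. Without the 2 libraries of highest Ucp1, an exclusion chosen after seeing the data, the log2 fold change of Dio2 under isoproterenol was 0.51 in KO and 1.32 in WT. Both excluded libraries were isoproterenol libraries, so KO minus WT under vehicle kept all of its own libraries. Its value of 0.71 in that fit (edgeR adjusted p = 0.207) is therefore no check on brown fat. The part of brown fat in the Dio2 values was not tested.

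The summed level of 8 adipocyte markers, of which Ucp1 is one, ran from 15.9 to 54.1 CPM in KO isoproterenol, 15.5 to 48.6 in WT isoproterenol, 22.4 to 40.8 in KO vehicle and 20.0 to 34.7 in WT vehicle. All groups overlapped, and none of the 6 adipocyte markers tested passed in either isoproterenol comparison (edgeR). Cidea, a marker in the sum, ran from 10.4 to 16.3 CPM in KO isoproterenol and 10.6 to 15.8 in WT isoproterenol. In vehicle Cidea ran from 11.4 to 16.9 in KO and 12.6 to 15.7 in WT. Adipoq ran from 0.164 to 3.70 CPM in KO isoproterenol and 0.0699 to 2.95 in WT isoproterenol. In vehicle Adipoq ran from 0.831 to 2.75 in KO and 0.360 to 2.04 in WT. Much of the lowest sums was Cidea, so their overlap says little about the other markers. Lep and Retn had too few counts to be tested. In RNA of a whole organ, a change in the number of cells of a type and a change in RNA per cell cannot be told apart.

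**Figure D4:**
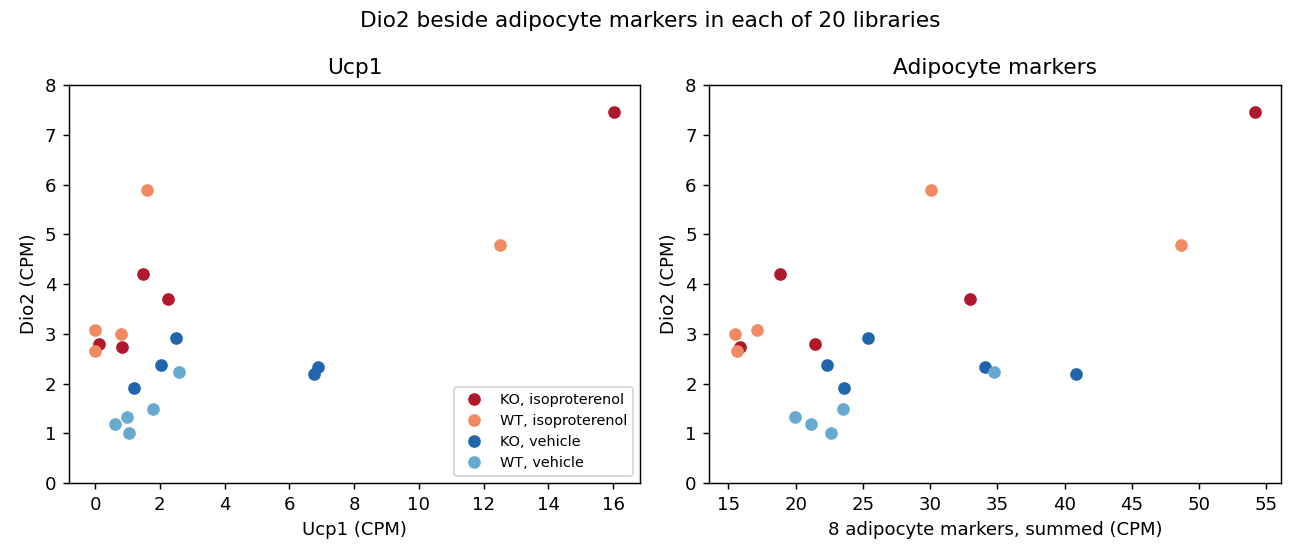
Each point is 1 of the 20 libraries, with Dio2 in CPM on the vertical axes against Ucp1 in CPM on the left and the summed CPM of 8 adipocyte markers, Ucp1 included, on the right. Replicate 5 of KO isoproterenol is the highest in both panels (7.45 CPM of Dio2 and 16.0 CPM of Ucp1), and a pair of WT isoproterenol libraries lies at 0 CPM of Ucp1 with 3.07 and 2.65 CPM of Dio2.

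Fibroblast markers, like Dio2, stood higher under isoproterenol. The summed level of 8 of them ran from 1276 to 1658 CPM in KO isoproterenol, 1151 to 1262 in WT isoproterenol, 1063 to 1231 in KO vehicle and 948 to 1090 in WT vehicle. Within each genotype the treatments did not overlap. Other sums also stood apart, higher under isoproterenol. These were macrophage markers in KO (178 to 198 against 155 to 160 CPM) and 2 lists in WT. Endothelial markers ran from 479 to 521 against 438 to 463 CPM, and smooth muscle and pericyte markers from 680 to 780 against 564 to 661. The share of all genes that separate so was not counted. Of the 8 fibroblast markers, 3 rose in KO (Lum, Dpt and Pi16) and 4 rose in WT (the same 3 and Gsn), in comparisons in which 4.75% of all genes rose in KO and 4.64% in WT (edgeR, adjusted p under 0.05). In KO 2 of 8 macrophage markers and 1 of 7 smooth muscle and pericyte markers rose, and in WT 3 of 8 and 2 of 7. Of all genes, 4.29% fell in KO and 4.12% in WT. Of 6 endothelial markers 1 fell in KO and 3 rose in WT. Of 7 cardiomyocyte markers 3 fell in KO and 2 fell in WT, and of 6 atrial markers 3 fell in KO and none passed in WT. None of 3 tested skeletal muscle markers passed in either. The part of cell makeup in the Dio2 values was not tested.

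Depth ran from 14609808 to 43671055 counts per library, of which 55.5 to 61.9% fell on mitochondrially encoded genes. Ogfod1 stood at 2.39 to 4.13 CPM in KO isoproterenol against 18.7 to 21.8 in WT isoproterenol, and at 2.49 to 4.08 in KO vehicle against 16.9 to 20.9 in WT vehicle, in the direction of the labels. Cardiomyocyte markers were high in every library, with sums of 11087 to 16593 CPM. Replicate 5 of KO isoproterenol had the lowest of these sums and the highest smooth muscle and pericyte sum (1651 CPM), and replicate 2 of WT vehicle had the lowest atrial (669 CPM) and fibroblast (948 CPM) sums. Without both libraries the log2 fold change of Dio2 under isoproterenol was 0.52 in KO and 1.40 in WT, and KO minus WT was 0.69 under vehicle (edgeR adjusted p = 0.377) and −0.20 under isoproterenol.

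Around the 4 genes, 6 lists of 80 genes, called pathway lists here, were followed, of which 70 were tested. Of these lists, 1 holds 11 genes induced through cAMP rather than genes of thyroid hormone action. Myh7 belongs to the choice of members and is left out of the isoproterenol counts, which leaves 69. In KO, 0 of the 69 rose and 5 fell, where 4.75% of all genes rose and 4.29% fell. In WT, 1 rose and 7 fell, where 4.64% of all genes rose and 4.12% fell (edgeR, adjusted p under 0.05). The gene that rose in WT, Pde4b, belongs to the list of genes induced through cAMP. The unadjusted p was under 0.05 for 9 higher and 10 lower genes in KO and for 5 higher and 13 lower genes in WT. DESeq2 called 2 higher and 6 lower in KO, and limma-voom called 0 and 5. In WT DESeq2 called 2 higher and 9 lower, and limma-voom called 2 and 8. The median log2 fold change of the 69 was 0.00 in KO and −0.06 in WT, beside 0.01 and 0.00 over all genes tested.

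Enzymes, transporters and binding proteins other than the members were mostly near the floor. Of 15 listed, 6 had enough counts, and none passed in either isoproterenol comparison (edgeR), with 1 higher at an unadjusted p under 0.05 in each. The other deiodinase genes, Dio1 and Dio3, had 0 to 2 and 0 to 1 counts in a library, so Dio2 was the one deiodinase gene measurable at this depth. None of 12 genes of DIO2 turnover and selenoprotein synthesis passed in edgeR (0 in KO and 1 lower in WT at an unadjusted p under 0.05), among them Usp20 and Usp33, which remove ubiquitin from DIO2, at log2 fold changes of −0.12 and −0.13 in KO and −0.09 and −0.08 in WT.

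Of 18 receptor partners and coregulators, 2 fell in KO and 3 fell in WT, where 4.29% of all genes fell in KO and 4.12% in WT (edgeR). At an unadjusted p under 0.05, 3 were higher and 2 lower in KO, and 0 higher and 3 lower in WT. Ncor1, a corepressor that the unliganded receptors recruit, averaged 124 ± 2.56 CPM in KO isoproterenol and 141 ± 5.87 CPM in KO vehicle, and 120 ± 5.99 CPM in WT isoproterenol and 142 ± 7.60 CPM in WT vehicle (SD, n = 5 each). It fell by 0.18 on the log2 scale in KO (edgeR adjusted p = 0.0332) and by 0.24 in WT (edgeR adjusted p = 0.00480). The WT call held in all 29 alternatives, and the KO call was lost without any 1 of 7 libraries (replicates 1, 2, 4 and 5 of KO isoproterenol and 1, 3 and 5 of KO vehicle; edgeR adjusted p up to 0.0810), with the log2 fold change at −0.19 to −0.16. It was also lost with every gene of at least 1 count kept, with only the groups compared and without the libraries of highest Ucp1 (edgeR adjusted p up to 0.0835). In KO the retinoid X receptor gene Rxrg, a dimer partner, fell by 0.36 (edgeR adjusted p = 0.0153). Without replicate 4 of KO vehicle its value was −0.28 (edgeR adjusted p = 0.0726). In WT the coactivator gene Ncoa3 fell by 0.21 (edgeR adjusted p = 0.0381). The Ncoa3 call was lost without any 1 of 7 (replicates 1, 2, 4 and 5 of WT isoproterenol and 2, 4 and 5 of WT vehicle), at −0.22 to −0.18, and also with every gene kept and without both libraries that stand apart (edgeR adjusted p up to 0.0952 over these).

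Of 17 genes known to be raised by T3, 1 was higher and 6 were lower in each genotype at an unadjusted edgeR p under 0.05. After adjustment none rose and 3 fell in each (edgeR), where 4.29% of all genes fell in KO and 4.12% in WT. In KO these included Kcnd2, a potassium channel gene, which fell by 0.26 (edgeR adjusted p = 0.0414), and Thrsp, a gene of lipid synthesis in liver, which fell by 0.32 (edgeR adjusted p = 0.0409). In WT they included Myh6 and Me1. Myh6 averaged 10523 ± 660 CPM in WT isoproterenol and 14908 ± 2387 CPM in WT vehicle (SD, n = 5 each) and fell by 0.50 (edgeR adjusted p = 3.62e-04). It was 0.21 lower in KO under isoproterenol as fitted, which did not pass (edgeR adjusted p = 0.138). Me1, the cytosolic malic enzyme, fell by 0.40 in WT (edgeR adjusted p = 0.00456). The list's median log2 fold change was −0.14 in KO and −0.13 in WT.

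The calls of Myh6 and Me1 in WT held in all 29 alternatives. The Kcnd2 call was lost without any 1 of 6 libraries (replicates 1, 2 and 5 of KO isoproterenol and 3, 4 and 5 of KO vehicle), at −0.27 to −0.21, and with only the groups compared (edgeR adjusted p = 0.0767). The Thrsp call was lost without any 1 of 5 (replicates 2 and 4 of KO isoproterenol and 1, 2 and 3 of KO vehicle), at −0.34 to −0.26, and with only the groups compared (edgeR adjusted p = 0.0585).

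Of 5 tested genes known to be lowered by T3, with Myh7 left out, none passed in KO (edgeR; 1 lower at an unadjusted p under 0.05). In WT 1 was higher and 1 lower at an unadjusted p under 0.05, and 1 fell after adjustment. Of all genes, 4.12% fell in WT. The gene of this list that fell was Adcy6, the gene of a cardiac adenylyl cyclase, by 0.31 (edgeR adjusted p = 0.0201). Its call was lost without any 1 of 5 libraries (replicates 1, 3 and 4 of WT isoproterenol and 2 and 4 of WT vehicle). Of 11 genes induced through cAMP, none passed in KO (edgeR; 4 higher and 1 lower at an unadjusted p under 0.05). In WT 2 were higher and 2 lower at an unadjusted p under 0.05, and 1 rose after adjustment. Of all genes, 4.64% rose in WT. Pde4b, a phosphodiesterase that breaks cAMP down, averaged 29.4 ± 5.88 CPM in WT isoproterenol and 21.1 ± 1.53 CPM in WT vehicle (SD, n = 5 each), a rise of 0.48 (edgeR adjusted p = 0.0155) that held in all 29 alternatives. In KO Pde4b was 0.36 higher as fitted (edgeR adjusted p = 0.0714). The median of the list was 0.36 in KO and 0.00 in WT.

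**Figure D5:**
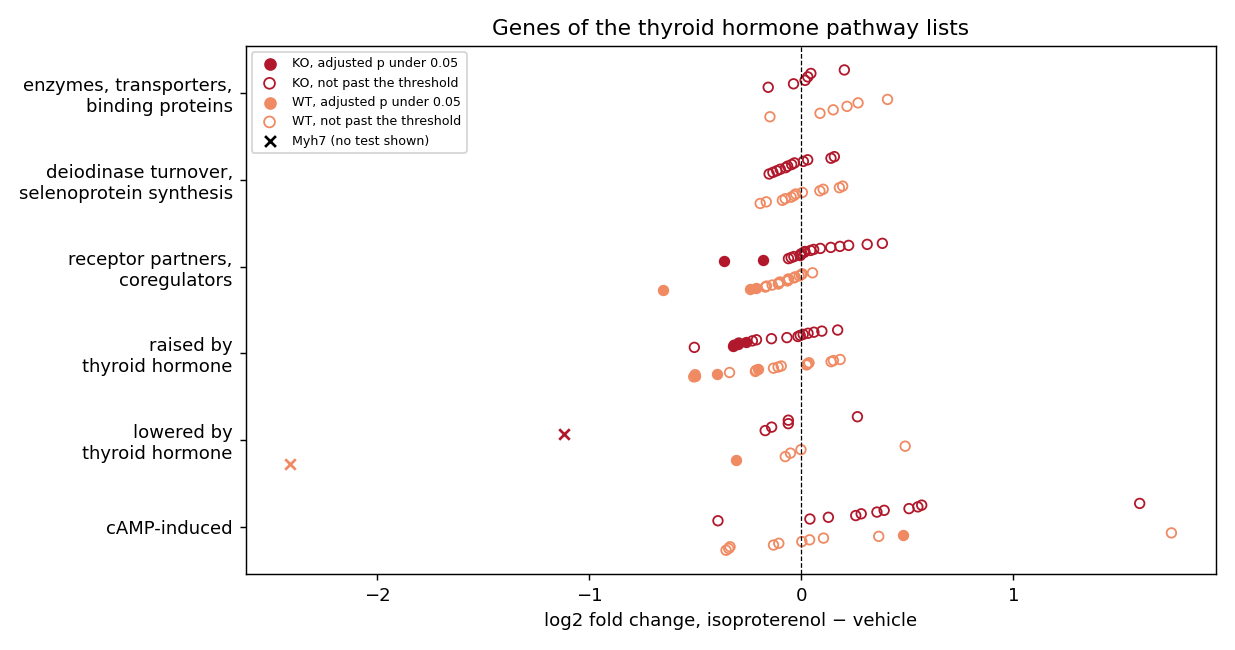
Each circle is 1 gene of the 6 pathway lists, placed by its log2 fold change of isoproterenol over vehicle in KO (red, upper row of each list) and WT (orange, lower row), filled where the edgeR adjusted p was under 0.05. Crosses mark Myh7 (−1.12 in KO and −2.41 in WT), shown without a test, and the filled circle to the right of 0 is Pde4b in WT.

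No gene of the lists passed in KO against WT, under vehicle or under isoproterenol, or for the difference between responses, among 70 tested (edgeR). The unadjusted p was under 0.05 for 3 higher and 8 lower genes under vehicle, for 4 and 5 under isoproterenol and for 9 and 3 in the difference. Of all 14878 genes tested, 1236 had such a p under vehicle, 1935 under isoproterenol and 1142 in the difference, in either direction. DESeq2 and limma-voom each called 1 lower gene under vehicle and none in the other comparisons. The list of genes lowered by T3, which holds Myh7, gave 0 to 1 lower gene under vehicle over the alternatives.

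Genes whose pattern was most like that of Dio2 were ranked by Pearson's r of log2 CPM over the 20 libraries, among 10360 genes with an average log2 CPM of at least 1. The points share depth, scaling and the 4 groups, so r is a description. The highest were Klhl13 (0.92), Cdo1 (0.90), Cdk6 (0.88), Gpx1 (0.88), Mfap4 (0.88) and Cilp (0.88). Gpx1 encodes a glutathione peroxidase that is a selenoprotein, as DIO2 is, and Mfap4 and Cilp encode proteins of the extracellular matrix. The lowest were Ogdh (−0.89), Ccdc141 (−0.88), Arhgap20 (−0.88) and Cs (−0.88), of which Ogdh and Cs encode enzymes of the citric acid cycle. With group means taken out, r was 0.80 for Klhl13, 0.73 for Cdo1, 0.67 for Mfap4, 0.65 for Cdk6 and 0.62 for Gpx1 and Cilp. It was −0.71 for Ogdh, Arhgap20 and Cs and −0.66 for Ccdc141. These deviations include replicate 5 of KO isoproterenol, whose Dio2 lay 0.92 above its group mean on the log2 scale.

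The nearest genes to the other members were Sardh, Ltbp1 and Arhgef10l for Thra (0.74, 0.74 and 0.73), Zbtb21, Golt1b and Sgcd for Thrb (0.82, 0.78 and 0.78) and Slc5a3, Pura and Fam78a for Slc16a10 (0.85, 0.75 and 0.73). Slc5a3, which encodes a transporter of myo-inositol, kept r = 0.89 with Slc16a10 with group means taken out. Among the members, deviations from group means gave r = 0.46 for Thra with Thrb, 0.43 for Dio2 with Thra, 0.37 for Thra with Slc16a10, 0.14 for Dio2 with Slc16a10, 0.09 for Thrb with Slc16a10 and 0.08 for Dio2 with Thrb.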

How the data were processed

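The deposited table holds raw counts per gene in 20 heart libraries, for which the submitters' processing notes list HISAT2 2.1.0, featureCounts 1.6.3, limma 3.40.6, R 3.6.0 and the GRCm38 build. Libraries were made with a stranded total RNA kit, per the labels. No annotation release, strand setting or handling of multi-mapping reads is given there. No column lacked a sample (0).

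Versions were stripped from the 55335 Ensembl IDs, and 55154 matched GENCODE vM21. Counts were fitted in R 4.3.3 with edgeR 4.0.16 (TMM scaling, filterByExpr, robust quasi-likelihood, 1 mean per group, 16 residual degrees of freedom), with 14878 genes tested and Benjamini-Hochberg adjustment over all of them. CPM used TMM library sizes, RPKM the union of exons, and log2 CPM for correlations a prior count of 2. Correlations were tested by 100000 two-sided permutations in scipy 1.17.1, within groups for the deviations. The fits were tested on simulated counts.

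The members and gene lists were chosen with earlier results of these data known. Named genes were the members, Myh7, Myh6, Nr1d1, every list gene that passed (up to 6 per list) and the genes nearest to each member by r. Some genes that this rule names are not reported here. Usp20, Usp33, Ucp1 and the fibroblast markers were named after their values were seen. Alternatives were DESeq2 1.42.0, limma-voom (limma 3.58.1), other scalings and filters, fits of only the groups compared, and exclusions of libraries. Replicate numbers are only names, given in accession order. No pair of libraries within a group agreed within sampling noise. Counting intervals cover counting error only.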

Additional observations from a re-analysis of the deposited data

Results flagged for a closer look

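Dio2, Thra, Thrb, Slc16a10, Myh7, Myh6, Nr1d1 and Ucp1 were checked in 4 groups each, which made 32 groups of 5 libraries. A library was singled out where its gap to the nearest other, as a share of the group's range, was past the critical value of 0.710 on the CPM or the log2 CPM scale. Chance alone singles out about 1 group in 20. In Thrb, replicate 4 of KO vehicle lay above the others at 16.7 CPM (share 0.927, and 0.922 on the log2 scale), and replicate 1 of WT isoproterenol lay below the others at 11.1 CPM (0.735, and 0.757 on the log2 scale).

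Another 4 libraries were past the value on the CPM scale and not on the log2 scale, on which folds and correlations were taken. Replicate 1 of KO vehicle had Myh7 at 200.1 CPM (0.762 and 0.657), and without it the isoproterenol value of Myh7 in KO was −0.80, against −1.12 with it. Replicate 5 of KO vehicle had Nr1d1 at 49.3 CPM (0.714 and 0.653). Ucp1 stood at 16.0 CPM in replicate 5 of KO isoproterenol (0.867 and 0.449) and at 12.5 CPM in replicate 2 of WT isoproterenol (0.871 and 0.405).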

How the results depend on the processing

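None of the 344 tested values of the 4 members under alternatives passed the threshold, and the lowest adjusted p was 0.0628. Dio2 in KO minus WT under isoproterenol turned to −0.20 without the pair of libraries that stand apart (KO isoproterenol 5 and WT vehicle 2), and to −0.10 without the libraries of highest Ucp1. The Thra difference of responses turned to −0.013 and −0.0024 in the same exclusions. Leaving out 1 library at a time gave −0.20 to 0.31 for that Dio2 value, −0.033 to 0.10 for that Thra value, −0.061 to 0.079 for Slc16a10 in KO minus WT under vehicle and −0.0021 to 0.081 for Thrb in KO minus WT under isoproterenol. The cause was not tested.

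Of the 13 calls among pathway genes, 5 held in all 29 alternatives. Pathway genes higher under isoproterenol in WT were 2 under DESeq2, limma-voom, every gene with a count kept and both exclusions (1 in the report). In KO, higher genes were 2 under DESeq2 and both exclusions, 3 with every gene kept and 1 with only the groups compared, where 2 were lower (0 and 5 in the report). In KO minus WT under vehicle, 1 was lower under DESeq2 and limma-voom and 2 with every gene kept, and that filter gave 1 higher gene under isoproterenol and 1 in the difference of responses. Leaving out 1 library gave 1 to 2 higher and 3 to 9 lower in WT, 0 to 3 higher and 2 to 5 lower in KO, and 0 to 1 lower in KO minus WT under vehicle. With 1 library left out, the relation of Dio2 with Myh7 ran from −0.16 to 0.19 over the isoproterenol libraries (0.34 without TMM factors), −0.80 to −0.65 over the vehicle libraries (adjusted permutation p of 0.0477 to 0.192) and −0.23 to −0.04 over the deviations, which gave 0.036 without TMM factors.

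Over all genes, higher and lower calls in KO minus WT were 9 and 10 under vehicle, against 28 and 41 by DESeq2, 38 and 79 with every gene kept, 18 and 20 without both libraries that stand apart and 10 and 18 with only the groups compared. Under isoproterenol they were 8 and 19, against 70 and 60, 151 and 99, 26 and 24, and 9 and 9. The difference of responses gave 0, against 23 and 11 with every gene kept and 2 and 2 without both libraries. With 1 library left out, the vehicle total of 19 became 10 (without KO vehicle replicate 5) to 35 (without KO isoproterenol replicate 5) and moved over 1.5 times for 5 of 20 libraries. The isoproterenol total of 27 became 10 (without WT isoproterenol replicate 3) to 55 (without WT isoproterenol replicate 1) and moved that far for 9, and the difference of responses gave 0 to 1. Upper quartile scaling turned the KO isoproterenol calls to 641 higher and 767 lower, from 706 and 638. Depth limits Dio2, with 19 to 177 counts. No paired analysis was possible because the labels carry no replicate numbers that the groups share.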
